A study of Homo sapiens with 6 samples.

Results

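The genes described here code for the endoplasmic reticulum (ER) machinery that takes in, folds, inspects and discards secreted and membrane proteins. They were chosen from a fixed list of 43 gene symbols, and all 43 were found among the 26485 gene names of the count table. Of these, 41 matched by symbol, and the older symbols ERO1L and ERO1LB were matched through RefSeq synonyms to ERO1A and ERO1B. The list was divided by function into 8 stress sensors and transcription factors, 12 folding factors, 11 genes of ER-associated degradation (ERAD), 9 translocon genes and 3 signal peptidase genes. The rule that chose them uses symbols and no measured value, but the list and its groups were drawn up with earlier results of these data known.

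The cells were THP1, an established human acute monocytic leukemia line grown in culture. They were exposed for 6 h to Withaferin A (WFA), a steroidal lactone, or to DMSO, its solvent. WFA is labelled as 1 mM in the sample records and as 1 μM in the methods text. Each group had 3 RNA-seq libraries, 1 from each of 3 independent experiments, and the only comparison of the design is WFA against DMSO in this 1 cell line at this 1 time.

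Most proteins that enter the ER do so through the SEC61 channel, lose their signal peptide to the signal peptidase complex, and fold with the help of chaperones, lectins and disulfide isomerases. Proteins that fail are recognised by mannosidase-related proteins and lectins, drawn back through the membrane and handed to the proteasome. When unfolded proteins accumulate, the membrane sensors IRE1, ATF6 and PERK start the unfolded protein response. In this response the transcription factors XBP1 and ATF6 raise the expression of folding and ERAD genes through promoter sequences. A sequence called the ER stress element is among them. Monocytic cells secrete enzymes and cytokines, which pass through this machinery.

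Libraries held between 11006035 and 13872810 counts. Expression is given as CPM, the count of a gene relative to the total of its library after TMM correction. It is not corrected for transcript length, so levels are compared between libraries and not between genes. All 7 monocytic markers examined (CD33, LYZ, CSF1R, SPI1, ITGAM, CD68 and FCGR1A) exceeded 10 CPM in every library. Of 6 markers of other cells (CD3D, CD3E, MS4A1, HBB, EPCAM and COL1A1), all stayed under 2 CPM in every DMSO library and 5 did so in every WFA library. Their summed level was 0.281 to 1.17 CPM with DMSO and 8.86 to 12.8 CPM with WFA. The exception was COL1A1, a collagen gene, at 0.211 to 0.833 CPM with DMSO and 8.54 to 12.6 CPM with WFA, while HBB was at 0 in every library. Whether COL1A1 rose inside the THP1 cells or came from other cells, and any part of such cells in the results, was not tested.

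Of the 43 genes, 41 had enough counts to be tested, and with WFA 13 of them rose and 3 fell. XBP1, ERN1, CREB3, ERO1B, MANF, CANX, HYOU1, CALR, SYVN1, HERPUD1, DERL2, OS9 and SPCS2 were higher, EDEM1, EDEM3 and ERO1A were lower, and 25 genes passed the test in neither direction. The changes were small. ERN1 alone exceeded 2-fold, and none fell by over 2-fold. Calls are from the quasi-likelihood test of edgeR, adjusted by the Benjamini-Hochberg method over all 12854 genes tested, at an adjusted p under 0.05. SE denotes the standard error of a log2 fold change. WFA changed a large part of the transcriptome by this rule, with 25.8% of all tested genes higher and 24.7% lower. The 13 higher members made up 31.7% of those tested, which is near the 25.8% of all genes, and the 3 lower members made up 7.32%. Over 2-fold, 8.11% of all genes were higher and 5.2% lower. The median log2 fold change was 0.11 over the 41 members and 0.02 over all tested genes. When libraries were scaled by their totals alone, these medians were 0.02 and -0.06. Without DMSO replicate 3 they were 0.0483 and 0.0126. In bulk RNA, a shift in every cell and a larger shift in some of the cells cannot be told apart.

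**Figure D1:**
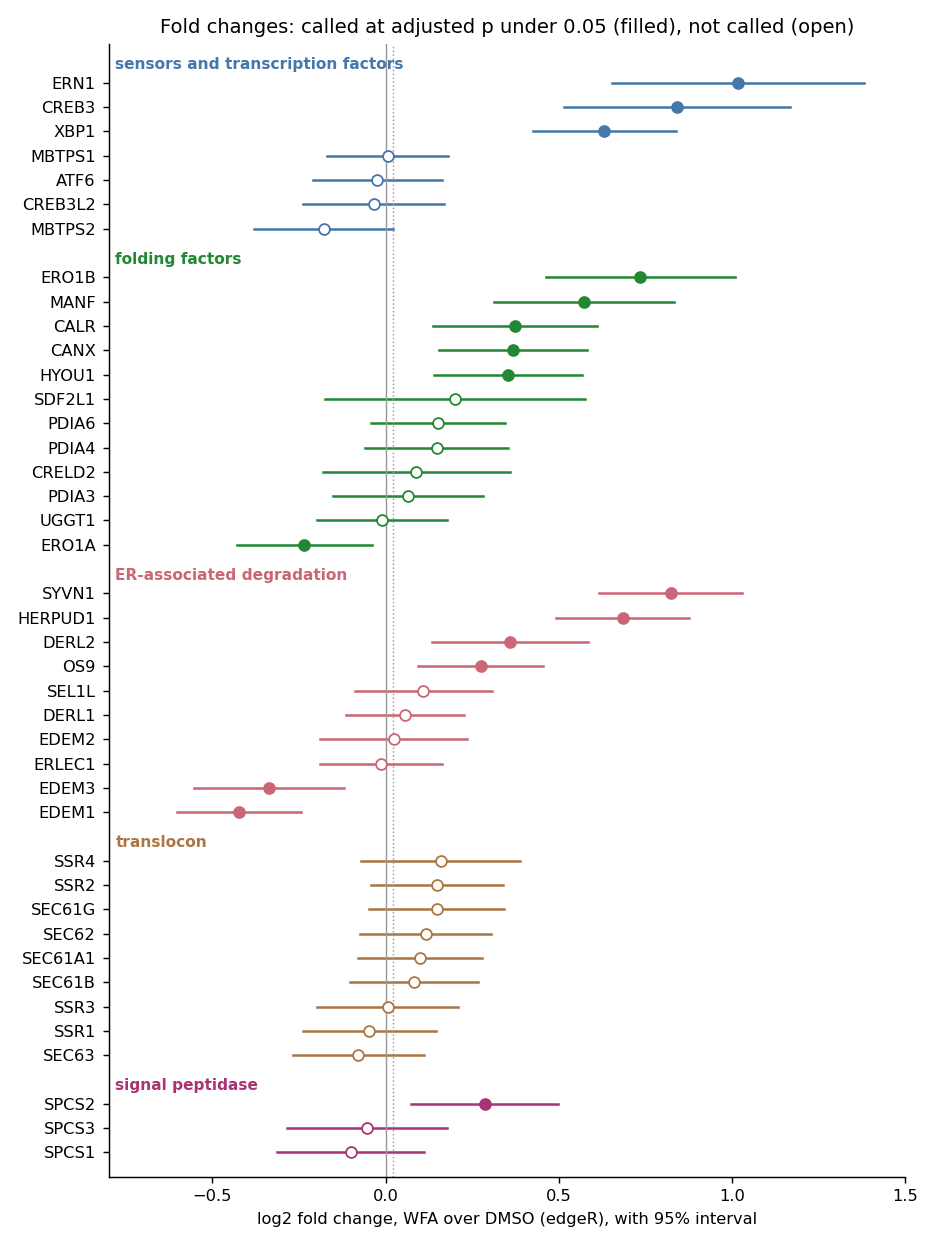
Log2 fold change of each of the 41 tested members, WFA over DMSO, from edgeR's quasi-likelihood fit (horizontal axis), by functional group (colours). Points are estimates, lines are 95% intervals, filled points passed an adjusted p of 0.05, and the dotted line is the median of all 12854 tested genes at 0.02. Filled points to the right stand in 4 of the groups, and all 9 translocon points are open. Of all 12854 tested genes, 25.8% were called higher and 24.7% lower.

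Promoter sequences of the members were searched for the ER stress element, because this is a sequence through which XBP1 and ATF6 are known to act. RefSeq promoter windows of 300 bases on GRCh38.p14, reaching from 250 bases before a transcript start, were found for 39 of the 43 genes, and the table held no window for DERL1, DERL3, PDIA3 and SPCS1. The element was spelled as CCAAT, then any 9 bases, then CCACG, and its second form as ATTGG, any 1 base, then CCACG, each on both strands. The first form was present in 6 member genes and in 0.0769% of all 35116 windows. The second form was present in 3 other member genes and in 0.0541% of the windows. Here and below, a member gene is counted once if any of its windows matches, and the 39 genes had 50 windows. The share of all windows counts each window singly, so the measures are unlike. Stretches of up to 59 bases around the match are shown for these 9 genes, since the matches tie part of the gene list together. Each is written 5′ to 3′ on the strand of its gene with the fixed letters of the match in capitals, and CGTGG before ATTGG or CCAAT is the element on the opposite strand.
The first 6 belong to members that rose, and the last 3 to members that were not called.
XBP1 (chr22:28800583-28800641, minus strand): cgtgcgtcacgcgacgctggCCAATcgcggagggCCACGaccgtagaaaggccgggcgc
CALR (chr19:12938364-12938422, plus strand): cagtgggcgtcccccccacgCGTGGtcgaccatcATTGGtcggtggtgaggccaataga
CANX (chr5:179698758-179698816, plus strand): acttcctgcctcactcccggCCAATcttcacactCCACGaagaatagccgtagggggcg
ERO1B (chr1:236282163-236282208, minus strand): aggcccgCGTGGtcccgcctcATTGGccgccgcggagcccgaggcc
HYOU1 (chr11:119057254-119057304, minus strand): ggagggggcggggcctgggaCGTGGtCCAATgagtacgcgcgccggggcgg
HERPUD1 (chr16:56932005-56932055, plus strand): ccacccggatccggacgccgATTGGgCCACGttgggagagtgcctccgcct
PDIA6 (chr2:10812833-10812891, minus strand): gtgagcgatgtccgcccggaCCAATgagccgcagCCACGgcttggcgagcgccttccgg
SDF2L1 (chr22:21642094-21642144, plus strand): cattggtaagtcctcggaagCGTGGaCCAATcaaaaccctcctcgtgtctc
CRELD2 (chr22:49918534-49918592, plus strand): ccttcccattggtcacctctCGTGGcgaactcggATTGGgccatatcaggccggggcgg

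Relative to the transcript start of its window, the match lay between 34 and 52 bases before it in XBP1, 207 to 225 in CALR, 225 to 243 in ERO1B and 107 to 117 in HERPUD1. HYOU1 held 2 matches with the same letters, at positions -79 to -69, which is the stretch shown, and -185 to -175. In CANX the same site fell in 3 windows with different starts, at -151 to -133, -189 to -171 and -9 to 9, the last of which spans the start. Taking both forms, a match was present in 9 of the 39 member genes and in 0.131% of all windows (46 windows, from 44 genes). The list includes folding and ERAD genes, which XBP1 and ATF6 are known to raise through such sequences. A higher share in the list than in all windows is therefore no independent result. A match was present in 6 of the 13 members that rose, in 3 of the 22 that were not called and in 0 of the 3 that fell. The 9 genes with a match had log2 fold changes between 0.09 and 0.73 with a median of 0.37, and the 29 other tested members with a window had a median of 0.08. ERN1, CREB3, SYVN1 and MANF rose by 0.57 to 1.02 in log2 and held neither form in this window. Among the genes with a match, XBP1 stands with the sensors and HERPUD1 with ERAD. The others are folding factors, a group with a median of 0.18. Functional group and match therefore go together here, and a part of the element in the rise was not tested. A match is a run of letters and does not show that a factor was bound.

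**Figure D2:**
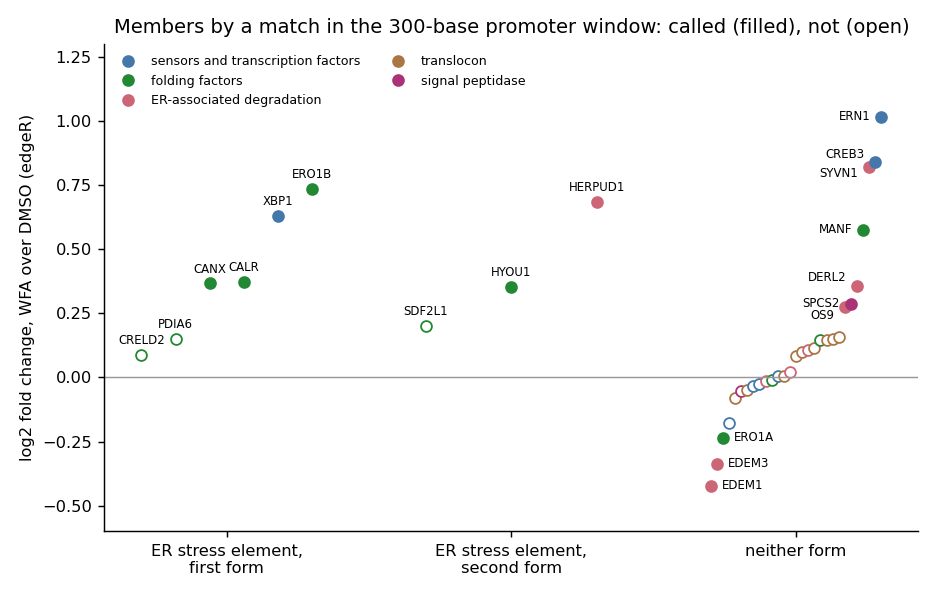
Log2 fold change of members, WFA over DMSO, from edgeR (vertical axis), for genes whose promoter window held the first form of the ER stress element, its second form, or neither. Filled points passed an adjusted p of 0.05, colours are functional groups, and within a column points are ordered by value. The 9 genes with a match lie between 0.09 and 0.73, 3 of them not called, and the median of the 29 others is 0.08. CRELD2, the lowest of the 9, was at -0.003 without DMSO replicate 2. ERN1, CREB3 and SYVN1, the 3 highest members, lie in the column without a match.

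Other elements of stress response promoters were searched in the same windows. TGACGTG, a sequence bound by ATF6 and XBP1 whose last letters can be shared with CGTGG, was present in 5 member genes and in 1.97% of all windows. The heat shock element (GAA, 2 bases, TTC, 2 bases, GAA) was present in 0 member genes and in 0.49% of windows. The C/EBP-ATF element (TGATG, 1 base, AA), through which ATF4 and CHOP act, was present in 2 member genes and in 3.62% of windows. The core of the antioxidant response element (TGAC, 3 bases, GC) was present in 9 member genes and in 13.3% of windows. TGACGTG was held by 1 of the 13 members that rose and 4 of the 22 not called, the C/EBP-ATF element by 1 of 13 and 1 of 22, and the antioxidant core by 4 of 13 and 5 of 22. None of the 3 members that fell held any of them.

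The stress sensors and transcription factors split into 3 genes that rose and 4 tested genes that were not called. Those that rose were 42.9% of the 7 tested, beside 25.8% of all tested genes. XBP1, the transcription factor whose mRNA is spliced by IRE1, was higher by 1.55-fold, ERN1, the gene for IRE1, by 2.02-fold, and CREB3, a membrane-bound transcription factor related to ATF6, by 1.79-fold. ATF6 itself, CREB3L2 and the proteases MBTPS1 and MBTPS2, which release ATF6 from the membrane, were not called.
XBP1 (chr22:28794555-28800597, minus strand) had 136, 126 and 115 CPM in DMSO replicates 1, 2 and 3, and 192.5, 177 and 214 CPM in WFA replicates 1, 2 and 3. All WFA libraries lay above all DMSO libraries. The log2 fold change was 0.63 (SE 0.096, edgeR adjusted p = 6.72e-05). The counts do not separate the spliced from the unspliced form of this mRNA.
ERN1 (chr17:64039142-64130819, minus strand) had 4.85, 4.26 and 5.83 CPM with DMSO and 9.80, 10.6 and 9.77 CPM with WFA, in the same order of replicates. The groups did not overlap, and the 3 WFA libraries lay closer together than the 3 DMSO libraries. WFA over DMSO gave 1.02 in log2 (SE 0.17, edgeR adjusted p = 0.000165).
CREB3 (chr9:35732335-35737004, plus strand) had 15.8, 13.5 and 10.8 CPM with DMSO and 25.0, 20.3 and 26.9 CPM with WFA. Replicate 3 was the lowest of the DMSO libraries and the highest of the WFA libraries, and the groups did not overlap. In log2 terms the fitted difference was 0.84 (SE 0.15, edgeR adjusted p = 0.000329). By GENCODE 29 annotation on GRCh38, CREB3 shares exonic bases with GBA2 and TLN1 on the opposite strand, and the library kit does not mark strand. GBA2 had a log2 fold change of -0.37 and TLN1 of 0.06.
ATF6 (chr1:161766294-161964070, plus strand), the membrane-bound transcription factor that is cut free under ER stress, had 144, 136 and 139.6 CPM with DMSO and 151, 134 and 128 CPM with WFA. The libraries of both groups were intermingled. This was a fitted log2 difference of -0.02 with a 95% interval from -0.21 to 0.16.
CREB3L2 had a log2 fold change of -0.03, MBTPS1 of 0.01 and MBTPS2 of -0.18. Each WFA library of MBTPS2 lay below each DMSO library, at 36.2 to 38.6 CPM against 41.1 to 44.4 CPM, and the edgeR adjusted p was 0.129. With libraries scaled by total counts in place of TMM factors, MBTPS2 passed the threshold (log2 fold change -0.26, edgeR adjusted p = 0.0327). WFS1, which codes for the ER membrane protein wolframin, had too few counts to be tested, with 4, 2 and 0 counts with DMSO and 1, 3 and 0 with WFA.

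**Figure D3:**
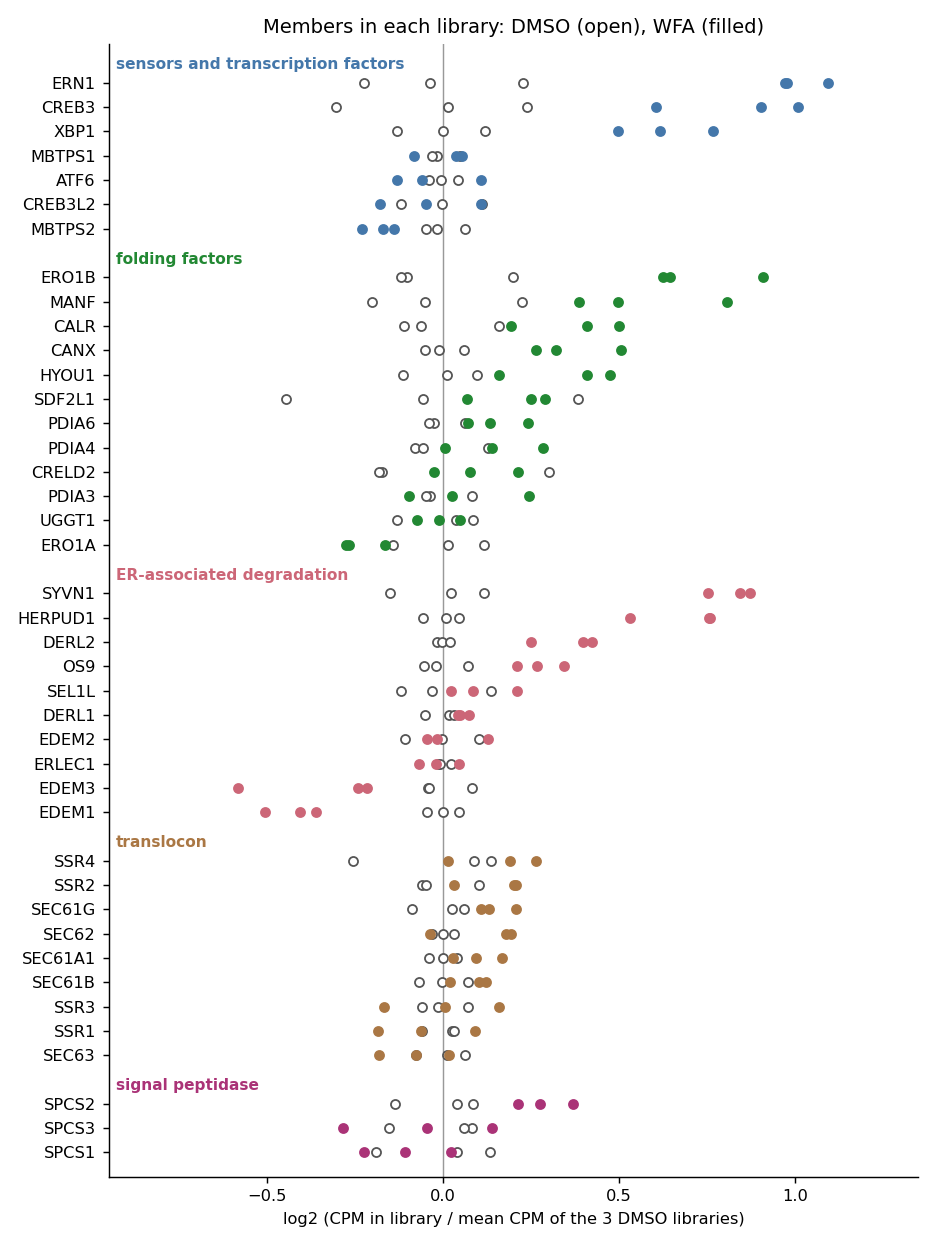
Expression of each tested member in each library, as log2 of its CPM over the mean CPM of the 3 DMSO libraries (horizontal axis). Open points are DMSO libraries, filled points are WFA libraries, and colours are functional groups. The 3 filled points stand to the right of all open points for 16 members and to the left for EDEM1, EDEM3, ERO1A and MBTPS2.

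Without overlap between the groups, 16 members were higher and 4 lower with WFA in the 6 libraries. Among all tested genes, 29.6% were higher and 28.5% lower in this sense. PDIA6, DERL1 and SEC61G were separated in this way without passing the threshold, and their log2 fold changes were 0.15, 0.06 and 0.15.

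Among the 12 folding factors, 5 rose (41.7%) and 1 fell (8.33%), beside 25.8% and 24.7% of all tested genes. The sulfhydryl oxidase ERO1B was higher by 1.66-fold, the secreted stress factor MANF by 1.49-fold, the lectin chaperones CALR and CANX by 1.295-fold and 1.289-fold, and HYOU1 by 1.28-fold. ERO1A, the paralog of ERO1B, fell to 0.85 of its DMSO level. The disulfide isomerases PDIA3, PDIA4 and PDIA6 were not called.
ERO1B (chr1:236215555-236281985, minus strand), which passes oxidising equivalents to disulfide isomerases, had 17.6, 17.4 and 21.7 CPM with DMSO and 35.4, 29.1 and 29.5 CPM with WFA. Every WFA library was above every DMSO library, and WFA replicate 1 was the highest. The fitted log2 fold change was 0.73 (SE 0.13, edgeR adjusted p = 0.000226).
MANF (chr3:51385047-51389397, plus strand), a cofactor of the main ER HSP70 chaperone, had 94.8, 78.3 and 70.6 CPM with DMSO and 142, 106 and 115 CPM with WFA. Replicate 1 was the highest library in both groups, and the groups did not overlap. WFA over DMSO gave 0.57 in log2 (SE 0.12, edgeR adjusted p = 0.00113).
CANX (chr5:179678628-179730925, plus strand), the membrane lectin calnexin, had 1743, 1615 and 1661 CPM with DMSO and 2373, 2009 and 2088 CPM with WFA. The lowest WFA library was above the highest DMSO library. In log2 terms the fitted difference was 0.37 (SE 0.10, edgeR adjusted p = 0.0067).
HYOU1 (chr11:119044189-119057202, minus strand), a large HSP70-like chaperone and exchange factor, had 411, 355 and 388 CPM with DMSO and 511, 429.7 and 534 CPM with WFA. The margin between the groups was narrow, since WFA replicate 2 was just above DMSO replicate 1. This was a fitted log2 difference of 0.35 (SE 0.10, edgeR adjusted p = 0.0086). CALR, the soluble lectin calreticulin, had 0.37 in log2 (SE 0.11, edgeR adjusted p = 0.0112), and leaving out WFA replicate 1 gave 0.31, which missed the threshold (edgeR adjusted p = 0.0608).
ERO1A (chr14:52639916-52695900, minus strand), the more widely expressed of the pair of ER oxidases, had 78.5, 70.5 and 84.3 CPM with DMSO and 69.4, 64.3 and 64.7 CPM with WFA. WFA replicate 1 was only just below DMSO replicate 2. The fitted log2 fold change was -0.23 (SE 0.092, edgeR adjusted p = 0.0449). This call was the least stable of the 16, being kept under 8 of 15 other settings, and it missed the threshold in DESeq2, with a minimum count of 50, and without DMSO replicate 1, DMSO replicate 3, WFA replicate 2 or WFA replicate 3, where the edgeR adjusted p reached 0.105 to 0.168.
Of the folding factors that were not called, PDIA3 had a log2 fold change of 0.06, PDIA4 of 0.15 and PDIA6 of 0.15. UGGT1, the glucosyltransferase that marks unfolded glycoproteins for another round of folding, had -0.01. SDF2L1, a cofactor of ER HSP70 machinery, had 0.20 and CRELD2, a secreted ER stress protein, had 0.09. SDF2L1 had 18.6, 13.7 and 10.5 CPM with DMSO and 17.5, 16.99 and 14.98 CPM with WFA, so the DMSO libraries spanned those of WFA. Without DMSO replicate 1, the log2 fold change of SDF2L1 was 0.44 and passed the threshold (edgeR adjusted p = 0.0433). The upper end of the 95% interval was 0.28 for PDIA3, 0.35 for PDIA4 and 0.34 for PDIA6. Reads on the pseudogene PDIA3P1 equalled 2.72% of those on PDIA3.

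Of the 10 tested genes of ERAD, 4 rose (40%) and 2 fell (20%), beside 25.8% and 24.7% of all tested genes. The ubiquitin ligase SYVN1 rose by 1.77-fold, its membrane partner HERPUD1 by 1.61-fold, the channel-forming protein DERL2 by 1.28-fold and the lectin OS9 by 1.21-fold. EDEM1 and EDEM3, which trim mannose from misfolded glycoproteins and so mark them for removal, fell to 0.746 and 0.792 of their DMSO levels.
SYVN1 (chr11:65121780-65134533, minus strand) had 41.8, 39.2 and 34.7 CPM with DMSO and 65.0, 70.6 and 69.1 CPM with WFA. It had the smallest adjusted p of all 41 members and no overlap between groups. WFA over DMSO gave 0.82 in log2 (SE 0.097, edgeR adjusted p = 5.93e-06). SYVN1 shares exonic bases with FAU and MRPL49, whose log2 fold changes of 0.19 and 0.18 were not called.
HERPUD1 (chr16:56932048-56944863, plus strand), which recruits ligase components to the ER membrane, had 65.1, 60.7 and 63.5 CPM with DMSO and 107, 91.2 and 106 CPM with WFA. The lowest WFA library was far above the highest DMSO library. In log2 terms the fitted difference was 0.68 (SE 0.090, edgeR adjusted p = 1.79e-05).
DERL2 (chr17:5471251-5486811, minus strand) had 24.0, 24.2 and 24.6 CPM with DMSO and 31.9, 28.8 and 32.6 CPM with WFA. All WFA libraries were above all DMSO libraries. This was a fitted log2 difference of 0.36 (SE 0.11, edgeR adjusted p = 0.0107). DERL2 shares exonic bases with MIS12 on the opposite strand, which had a log2 fold change of 0.37, and reads of the overlap cannot be assigned to either gene without strand. OS9, which binds trimmed glycans on misfolded proteins, had 0.27 in log2 (SE 0.085, edgeR adjusted p = 0.014), and it missed the threshold with total counts (0.19, edgeR adjusted p = 0.0709) and without DMSO replicate 1 (0.26, edgeR adjusted p = 0.0585).
EDEM1 (chr3:5187646-5219957, plus strand) had 341.7, 331 and 353 CPM with DMSO and 240.9, 258 and 266 CPM with WFA. Each WFA library lay well below each DMSO library. The fitted log2 fold change was -0.42 (SE 0.084, edgeR adjusted p = 0.000684).
EDEM3 (chr1:184690231-184754913, minus strand) had 258, 259 and 282 CPM with DMSO and 225, 229 and 178 CPM with WFA. WFA replicate 3 was far below the other WFA libraries. WFA over DMSO gave -0.34 in log2 (SE 0.10, edgeR adjusted p = 0.0123), and leaving out WFA replicate 3 gave -0.23, which missed the threshold (edgeR adjusted p = 0.0557).
SEL1L, the scaffold that holds SYVN1 in its complex, had a log2 fold change of 0.11, DERL1 of 0.06, EDEM2, which removes the first mannose of the glycan, of 0.02 and the lectin ERLEC1 of -0.01. None of these 4 was called in any of the settings tried. DERL3 was listed at 0 in every library. It shares 77.0% of its exonic bases with SMARCB1, a gene that cells generally use and that was also listed at 0 in every library, so the zeros of DERL3 are not read as a lack of its mRNA.

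None of the 9 translocon genes was called, whether they code for the SEC61 channel (SEC61A1, SEC61B and SEC61G), its partners in post-translational import (SEC62 and SEC63) or the translocon-associated TRAP complex (SSR1, SSR2, SSR3 and SSR4). Of all tested genes, 25.8% were called higher and 24.7% lower. The log2 fold changes of the 9 translocon genes lay between -0.08 for SEC63 and 0.16 for SSR4. SEC61A1, the pore-forming subunit, had 340.1, 349 and 359 CPM with DMSO and 356, 373 and 392 CPM with WFA. DMSO replicate 3 was above WFA replicate 1, so its groups overlapped. SEC61A1 had a log2 fold change of 0.10 with a 95% interval from -0.08 to 0.28. SEC61G, the smallest subunit, was the only translocon gene without overlap, at 44.0 to 48.7 CPM with DMSO and 50.3 to 54.0 CPM with WFA. Across the 9 genes the 95% intervals spanned -0.27 to 0.39 on the log2 scale, and a 2-fold change lay outside each of them. At an unadjusted p under 0.05, the edgeR test passed 0 of these genes, DESeq2 also passed 0, and edgeR with the replicate block passed 1, which was higher. SEC61A1 shares exonic bases with RUVBL1 on the opposite strand, which had a log2 fold change of -0.95. Reads on the pseudogene SSR4P1 equalled 2.194% of those on SSR4.

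Of the 3 subunits of the signal peptidase complex, SPCS2 rose by 1.22-fold. This is 33.3% of the 3 genes, beside 25.8% of all tested genes. SPCS2 (chr11:74949247-74979031, plus strand), a non-catalytic subunit, had 41.1, 39.8 and 35.2 CPM with DMSO and 49.99, 44.9 and 46.8 CPM with WFA. The WFA libraries lay above the DMSO libraries, with DMSO replicate 1 the nearest to them. In log2 terms the fitted difference was 0.29 (SE 0.099, edgeR adjusted p = 0.0258). The call was kept under 9 of 15 other settings, and it missed the threshold in DESeq2, with total counts, and without DMSO replicate 2, DMSO replicate 3 or WFA replicate 1. SPCS1 and SPCS3 had log2 fold changes of -0.10 and -0.05, and their groups overlapped. NEK4, on the opposite strand, shares 50.7% of the exonic bases of SPCS1.

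The functional groups were compared by their counts and medians. The median log2 fold change was 0.18 for the folding factors, 0.10 for the translocon, 0.08 for ERAD, 0.01 for the sensors and transcription factors, and -0.05 for the signal peptidase, beside 0.02 for all genes. The sensors held ERN1 and CREB3, the members with the largest fold changes, together with genes near 0, and their median was close to that of all genes although 3 of 7 rose. In the pairs of same-numbered libraries, the median over the folding factors was 0.17, 0.21 and 0.29. Without DMSO replicate 1, it was 0.33. When scaled by totals alone the medians were 0.09 for the folding factors, 0.01 for the translocon, -0.004 for ERAD, -0.08 for the sensors and -0.14 for the signal peptidase, so the signs of the ERAD and sensor medians depend on the scaling.
Summed over its genes, the folding group took 5575 to 6275 CPM with DMSO and 6472 to 7754 CPM with WFA. This sum did not overlap between the groups, and most of it comes from CALR, CANX, PDIA3 and PDIA6. The sensors and transcription factors summed to 566 to 607 CPM with DMSO and 634 to 674 CPM with WFA, also without overlap. The ERAD genes summed to 1480 to 1516 CPM with DMSO and 1502 to 1510 CPM with WFA, so that rises and falls left the total within the range of DMSO. The translocon genes summed to 1948 to 1985 CPM with DMSO and 1966 to 2067 CPM with WFA, and the signal peptidase genes to 390.4 to 419.9 and 348 to 426 CPM, both with overlap.

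Several members are paralogs, and their ratio inside each library does not depend on how libraries are scaled. The counts of ERO1B were 22.4%, 24.6% and 25.7% of those of ERO1A with DMSO and 51.1%, 45.2% and 45.6% with WFA. The lowest WFA ratio was well above the highest DMSO ratio. The mean log2 ratio shifted by 0.96 (SD 0.10 with DMSO and 0.099 with WFA, n = 3 each, two-sided exact permutation p = 0.1). With 3 libraries against 3 this is the smallest p the test can give, and over the 9 pairs of paralogs compared the Benjamini-Hochberg value was 0.18. The pairs were picked with earlier results of these data known. Where a ratio did not overlap between groups, the genes of the pair also differed in their calls above, so the ratios restate those calls. The share of non-overlapping ratios among other gene pairs was not measured.
The mannosidase-related genes also differed in their ratios. Counts of EDEM1 were 786%, 708% and 873% of those of EDEM2 with DMSO and 571.5%, 542% and 619% with WFA, and EDEM3 was also lower relative to EDEM2. The log2 ratios shifted by -0.45 and -0.37, with no overlap between groups and the same exact permutation p of 0.1 for each pair. EDEM3 relative to EDEM1 shifted by 0.08 with overlapping groups (exact permutation p = 0.6).
DERL2 relative to DERL1 shifted by 0.30 on the log2 scale, from 14.3%, 14.4% and 15.4% to 18.4%, 16.9% and 19.1%. CREB3 relative to CREB3L2 shifted by 0.89, from 12.1%, 11.2% and 9.72% to 19.2%, 17.3% and 25.2%. Neither pair overlapped between groups, and the exact permutation p was 0.1 for each. Among the disulfide isomerases the ratios overlapped. The shifts were -0.09 for PDIA3 over PDIA4, -0.09 for PDIA3 over PDIA6 and -0.004 for PDIA4 over PDIA6, with exact permutation p of 0.2, 0.3 and 0.9.

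**Figure D4:**
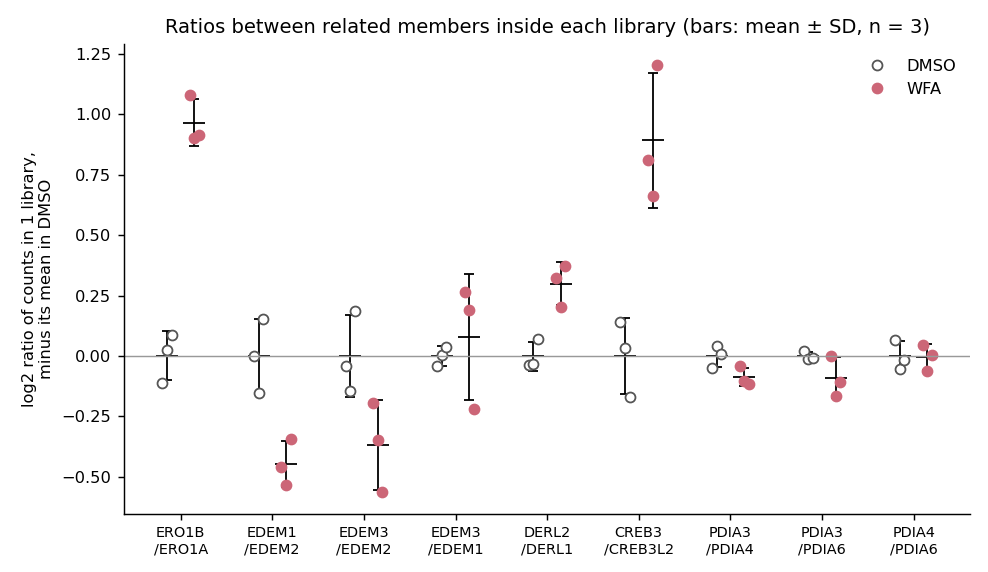
Log2 ratio of the counts of 2 related members inside each library, minus the mean of that ratio over the 3 DMSO libraries (vertical axis), for 9 pairs. Open points are DMSO libraries, filled points are WFA libraries, and bars are the mean ± SD (n = 3). ERO1B over ERO1A and CREB3 over CREB3L2 were higher by 0.96 and 0.89, those of EDEM1 and EDEM3 over EDEM2 were lower, and the ratios among PDIA3, PDIA4 and PDIA6 overlapped.

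The rest of the ER machinery was examined with 6 lists of 120 further genes, of which 119 were found and 110 tested. Of these, 38 rose and 19 fell, beside the 25.8% and 24.7% of all genes, with a median log2 fold change of 0.12. Among 7 other sensors and signal transducers, 5 rose and none fell, including TRAF2, the adaptor of IRE1 signalling (1.14, SE 0.14, edgeR adjusted p = 8.5e-06), and EIF2AK3, the gene for PERK (0.66, SE 0.13, edgeR adjusted p = 0.000548).
Of 10 genes of the ER HSP70 and HSP90 system, 6 rose (60%) and 1 fell (10%), beside 25.8% and 24.7% of all tested genes. The co-chaperones DNAJC3 and DNAJB9 had 1.05 in log2 (SE 0.096, edgeR adjusted p = 4.72e-07) and 0.92 (SE 0.12, edgeR adjusted p = 2.25e-05). HSPA5, the central ER HSP70 chaperone, was chosen for mention after its values were seen, and it had 1149, 1008 and 1018 CPM with DMSO and 1784, 1397 and 1709 CPM with WFA. This was a fitted log2 difference of 0.62 (SE 0.11, edgeR adjusted p = 0.000248).
Of 19 other disulfide and prolyl isomerases, 1 rose and 4 fell, including FKBP11 (-1.03, SE 0.29) at 11 to 30 counts per library and the thioredoxin-related TMX3 (-0.31, SE 0.090). These calls were unstable as a count, with 0 higher and 2 lower without DMSO replicate 3, 1 and 2 without WFA replicate 3, 1 and 1 at a minimum count of 50, and 0 and 3 in DESeq2. The higher count was also 0 without DMSO replicate 1, DMSO replicate 2 or WFA replicate 1. Among 18 genes of N-glycan transfer and trimming, 4 rose (22.2%) and none fell, beside 25.8% and 24.7% of all tested genes. The counts were 3 and 0 in DESeq2 without the block, and 3 and 1 with total counts. The log2 fold change was 0.58 for MAGT1, an oligosaccharyltransferase subunit, and 0.58 for CLGN, a calnexin relative.
The 28 genes of signal recognition and other insertion routes, outside the SEC61 and TRAP complexes, included 11 that rose (39.3%) and 6 that fell (21.4%). The shares of all tested genes were 25.8% and 24.7%. TRAM2, a translocation-associated membrane protein, had 71.6, 67.0 and 78.9 CPM with DMSO and 327, 270 and 382 CPM with WFA, which is 2.17 in log2 (SE 0.12, edgeR adjusted p = 2.76e-09). EMC3, a subunit of the ER membrane insertase, had 0.61. Of 28 other ERAD genes, 11 rose (39.3%) and 8 fell (28.6%). Among the 10 tested ERAD members, 4 rose (40%) and 2 fell (20%). Change in both directions was also seen over all tested genes, at the shares given above. ERLIN1, which marks IP3 receptors for removal, had 89.1, 85.6 and 92.7 CPM with DMSO and 24.0, 25.4 and 20.7 CPM with WFA, which is -1.93 in log2 (SE 0.10, edgeR adjusted p = 1.73e-09). TRIM13, an ER-anchored ubiquitin ligase, had -1.33 (SE 0.096).

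**Figure D5:**
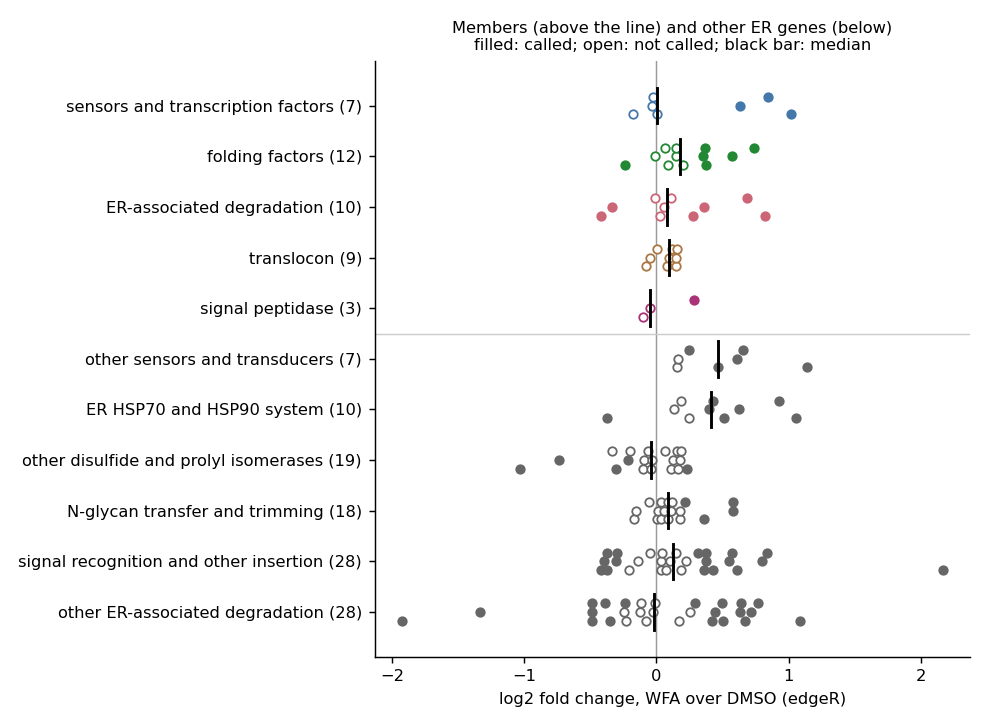
Log2 fold change, WFA over DMSO, from edgeR (horizontal axis) for the tested genes of the 5 functional groups of members (above the line) and of 6 lists of other ER genes (below), with the number tested in brackets. Filled points passed an adjusted p of 0.05 and black bars are medians. By this rule 25.8% of all tested genes were higher and 24.7% lower. The medians of the other sensors (0.47) and of the HSP70 and HSP90 system (0.41) were above that of the folding factors (0.18), and all translocon points are open.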

How the data were processed

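RNA was sequenced from THP1 cells exposed to DMSO or WFA for 6 h, with 3 libraries per group from 3 independent experiments. The authors deposited unnormalized counts of reads per gene symbol. Per the labels, libraries came from the TruSeq RNA v2 kit, and bcl2fastq 2.19, Trimmomatic, Bowtie2, Picard, featureCounts and DESeq2 were named with build hg38. Counting settings and annotation are not given in the sources used here. Deposited scaled counts, group means, fold changes and p-values were not used.

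Counts were fitted in edgeR 4.0.16 (R 4.3.3) with TMM normalization, the filterByExpr filter (minimum count 10) and a quasi-likelihood test without a block, and p-values were adjusted over 12854 genes. Of the gene names, 8157 had no counts in any library, and 3 counts corresponded to 0.211 to 0.279 CPM, which covers counting error only. No 2 libraries of a group differed by as little as counting noise (chi-square per gene 5.92 to 10.9), a check made only for repeated deposits of a library.

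DMSO and WFA libraries of one number share a string of digits in their labels and were taken to come from the same experiment. These same-numbered libraries deviated together from their group means (r across genes 0.217, 0.333 and 0.245, against -0.256 to 0.00369 for other pairs). Deviations within a group cancel by construction, so positive values for same-numbered pairs force negative ones among the other pairs. The contrast is therefore partly arithmetic. Alternatives were a replicate block, DESeq2 1.42.0 with and without the block, other scalings and filters, a robust fit and leaving out each library. The members, lists and tests were chosen with earlier results of these data known. Values in every library are given for XBP1, ERN1 and ATF6 and, in each functional group, for up to 4 called members with the smallest p and up to 2 called against the group's main direction, and up to 2 called genes with the smallest p are named from each other list. Gene coordinates are from GENCODE 29, and protein sequences were not analysed here. One of the planned markers of other cells is not reported here.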

Additional observations from a re-analysis of the deposited data

How the results depend on the processing

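The members were called 13 higher and 3 lower in edgeR, and the replicate block gave the same 13 and 3 and changed no member's call, with 3877 of all genes higher and 3708 lower in place of 3311 and 3178. In the lists of other ER genes the block gave 13 higher and 7 lower for signal recognition and insertion, 12 and 10 for other ERAD, 7 and 1 for the HSP70 and HSP90 system and 1 and 5 for the isomerases. For the members, DESeq2 gave 12 and 2 with and without the block, and total counts gave 11 and 4. Without WFA replicate 3 the lower members numbered 1, and over the libraries left out in turn they numbered 1 to 3. Over 15 other settings, no called member changed direction, 223 values kept their call and 17 missed the threshold, all in CALR, EDEM3, ERO1A, OS9 or SPCS2. Among the 25 members not called, 2 values passed the threshold, MBTPS2 with total counts and SDF2L1 without DMSO replicate 1.

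Total counts moved the median of all genes from 0.02 to -0.06, and the medians to -0.0799 for sensors and transcription factors, 0.0912 for folding factors, -0.00359 for ERAD, 0.0130 for the translocon and -0.14 for the signal peptidase. The translocon median was 0.0770 in DESeq2 without the block and 0.0765 with it. Leaving out each library gave -0.0232 to 0.0477 for sensors, 0.12 to 0.33 for folding factors, 0.0484 to 0.115 for the translocon and -0.0946 to 0.0522 for the signal peptidase. The cause of these shifts was not tested. The 95% intervals of translocon genes reach from -0.27 to 0.39 in log2.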
